A study of Mus musculus with 24 samples.

Results

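The response of ID8 cells to interferon (IFN) beta at 100 IU/ml was set against untreated ID8 cells. The members were chosen by their labels: the 2 samples given IFN beta at this dose, replicates 1 and 2, against 3 untreated samples, each of which had been measured on 2 arrays that were averaged. These are 8 of the 24 arrays of the series and 5 biological samples. ID8 is a mouse ovarian cancer line that grew out of surface epithelial cells in culture, so all groups are the same tumour cell line in culture. The cells received recombinant mouse IFN beta at 100 IU/ml for 3 h, or the phosphate-buffered saline vehicle alone, which the labels call untreated. The other arrays carry IFN beta at 10 and 1000 IU/ml and IFN epsilon, another type I interferon, at 10, 100 and 1000 IU/ml. The array of IFN beta at 100 IU/ml replicate 3 is marked by its label as excluded and was left out of the groups compared. That of IFN beta at 10 IU/ml replicate 3 is marked in the same way and was also left out of the fit. Replicate numbers stand for separate dates, per the series' design text, and wells of a treatment were pooled before measurement. The 2 treated samples thus share their dates with the untreated samples of dates 1 and 2. The untreated sample of date 3 has no treated partner here and enters both the untreated level and the spread of the fit.

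Type I interferons bind a receptor made of Ifnar1 and Ifnar2, whose kinases Jak1 and Tyk2 phosphorylate transcription factors, Stat2 among them. A complex that holds Stat2 and Irf9 enters the nucleus and binds the interferon-stimulated response element (ISRE) in promoters, and the gamma-activated site (GAS) is a further element of interferon-regulated promoters. The genes switched on encode proteins that sense viral RNA and DNA, degrade RNA, block translation of foreign transcripts and present antigen, and others that damp the signal.

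The promoters printed here show the sequence that is known to be read by this pathway, in genes whose levels were higher with IFN beta at 100 IU/ml. Each line gives the 250 bases before the transcription start, 5′ to 3′ on the gene's strand, from RefSeq on GRCm38.p6. Capitals mark matches to the ISRE core, GAAA and a second GAAA with any 2 bases between them, or to the GAS core, TTC and GAA with any 3 bases between them. Both strands were searched, so an ISRE core on the other strand reads TTTC, 2 bases, TTTC, and overlapping ISRE cores run together.
Isg15: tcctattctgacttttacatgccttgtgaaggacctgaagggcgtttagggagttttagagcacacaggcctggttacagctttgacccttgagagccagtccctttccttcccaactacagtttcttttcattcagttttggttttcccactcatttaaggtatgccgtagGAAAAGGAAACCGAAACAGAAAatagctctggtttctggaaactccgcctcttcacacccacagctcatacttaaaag
Ifit1: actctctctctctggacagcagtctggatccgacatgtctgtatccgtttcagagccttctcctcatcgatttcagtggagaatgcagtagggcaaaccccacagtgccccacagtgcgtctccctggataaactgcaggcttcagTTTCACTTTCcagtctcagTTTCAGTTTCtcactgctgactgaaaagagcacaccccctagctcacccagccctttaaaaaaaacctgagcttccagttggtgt
Oas3: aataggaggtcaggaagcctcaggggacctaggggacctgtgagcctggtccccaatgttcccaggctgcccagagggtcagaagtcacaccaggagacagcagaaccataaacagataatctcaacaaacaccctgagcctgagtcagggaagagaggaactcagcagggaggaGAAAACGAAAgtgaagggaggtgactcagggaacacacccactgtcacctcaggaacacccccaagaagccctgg
Igtp: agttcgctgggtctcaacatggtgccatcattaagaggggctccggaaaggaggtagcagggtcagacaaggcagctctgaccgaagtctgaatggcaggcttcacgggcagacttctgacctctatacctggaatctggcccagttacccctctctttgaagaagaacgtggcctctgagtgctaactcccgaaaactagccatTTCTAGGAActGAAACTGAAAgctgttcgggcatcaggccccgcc
Irgm2: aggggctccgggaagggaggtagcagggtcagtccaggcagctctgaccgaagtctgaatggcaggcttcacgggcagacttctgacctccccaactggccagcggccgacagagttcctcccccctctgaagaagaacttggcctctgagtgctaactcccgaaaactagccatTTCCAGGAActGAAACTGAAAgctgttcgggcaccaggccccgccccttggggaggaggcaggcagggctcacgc
Irf7: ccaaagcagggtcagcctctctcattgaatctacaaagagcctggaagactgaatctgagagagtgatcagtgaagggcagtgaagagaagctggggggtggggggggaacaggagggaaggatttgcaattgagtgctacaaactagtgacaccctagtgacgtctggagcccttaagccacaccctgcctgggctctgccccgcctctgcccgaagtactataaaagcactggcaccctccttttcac
The windows lie at chr4:156200819-156201068 on the minus strand for Isg15, chr19:34640639-34640888 on the plus strand for Ifit1 and chr5:120777660-120777909 on the minus strand for Oas3. Those of Igtp (chr11:58199306-58199555) and Irgm2 (chr11:58214727-58214976) lie on the plus strand, and that of Irf7 (chr7:141266425-141266674) on the minus strand. Isg15 held 3 overlapping ISRE cores that began 78 to 66 bases before the start. Ifit1 had 2, at 104 and 85 bases before it, and Oas3 had 1, at 75. Igtp and Irgm2, a neighbouring pair, each carried a GAS core right before an ISRE core, at 45 and 34 bases before the start in Igtp and at 75 and 64 in Irgm2. No match to these letters was found in the Irf7 window.

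The level of a gene is given throughout as log2 of the array's processed signal minus that array's 75th percentile, so that 0 is the 75th percentile and a step of 1 is 2-fold. A gene was called where limma's test, with date as a block, gave a Benjamini-Hochberg adjusted p under 0.05 over the 14297 genes tested. All 7 groups of the series entered the fit and share its date effects. A fold change or difference given with ± is the estimate of that fit, not the mean of the within-date differences. It can lie outside both of them, as for Gvin1 (2.02, with 1.91 on date 1 and 1.90 on date 2). The gap was wider in some genes that were not called. The fit gave Irf1 0.45, with 0.25 on date 1 and 0.26 on date 2, and Socs1 0.87, with 0.47 and 0.67. Nlrc5 had 1.15, with 0.86 and 0.84. For Irf9 the estimate of 1.30 lay between its differences of 1.11 and 1.70. The medians of gene lists below use the estimates of the fit. With IFN beta at 100 IU/ml, 41 genes rose (0.287% of genes tested) and 0 fell (0%). All but 3 of the 41 rose at least 2-fold, 17 at least 4-fold, and 3 (Ifit1, Ifit3b and Usp18) at least 8-fold. Among the 41 the log2 fold change ran from 0.69 (Tdrd7) to 3.83 (Ifit1) with a median of 1.87, while the median over all genes tested was -0.00065. At an unadjusted p under 0.05 limma found 543 genes, 237 of them higher, where 715 would be expected if no gene differed. Without the date block 16 genes were called higher (0.112%), all among the 41, and 0 lower, with 179 genes at an unadjusted p under 0.05. The count also rested on single samples: it was 0 without the IFN beta sample of date 1, 72 higher and 156 lower without that of date 2, 19 higher without untreated replicate 2 and 22 higher without untreated replicate 3. A fit on the 5 samples alone called 0 genes, with 524 at an unadjusted p under 0.05.

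In all 41 genes both IFN beta samples lay above all 3 untreated samples, an order that 4.04% of the genes tested showed, while 5.48% showed the opposite order, both IFN beta samples below all untreated samples. All 41 were also higher on date 1 and on date 2, as were 18.3% of genes tested. The median difference of the 41 was 1.70 log2 on date 1 and 2.06 on date 2, and 34 of them differed more on date 2. The 5 samples were spread over 3 slides, each scanned as a set. Within slide 2, which held IFN beta replicate 1, and within slide 1, which held replicate 2, the 41 genes were again all higher than untreated arrays of that slide, with medians of 1.54 and 1.71 and a lowest difference of 0.43. Of all genes tested 26.3% were higher within both slides, and the 41 had been called on the same arrays. The untreated arrays on slides 1 and 2 were of replicates 1 and 3, and both arrays of untreated replicate 2 lay on slide 3. IFN beta replicate 2 thus had no untreated array that shared both its date and its slide. Untreated samples were not alike for these genes: replicate 3 was the highest untreated sample in 31 of the 41 (47.6% of all genes tested) and replicate 2 the lowest in 31 (31.2%). The part that this order has in the larger differences on date 2 was not tested.

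**Figure D1:**
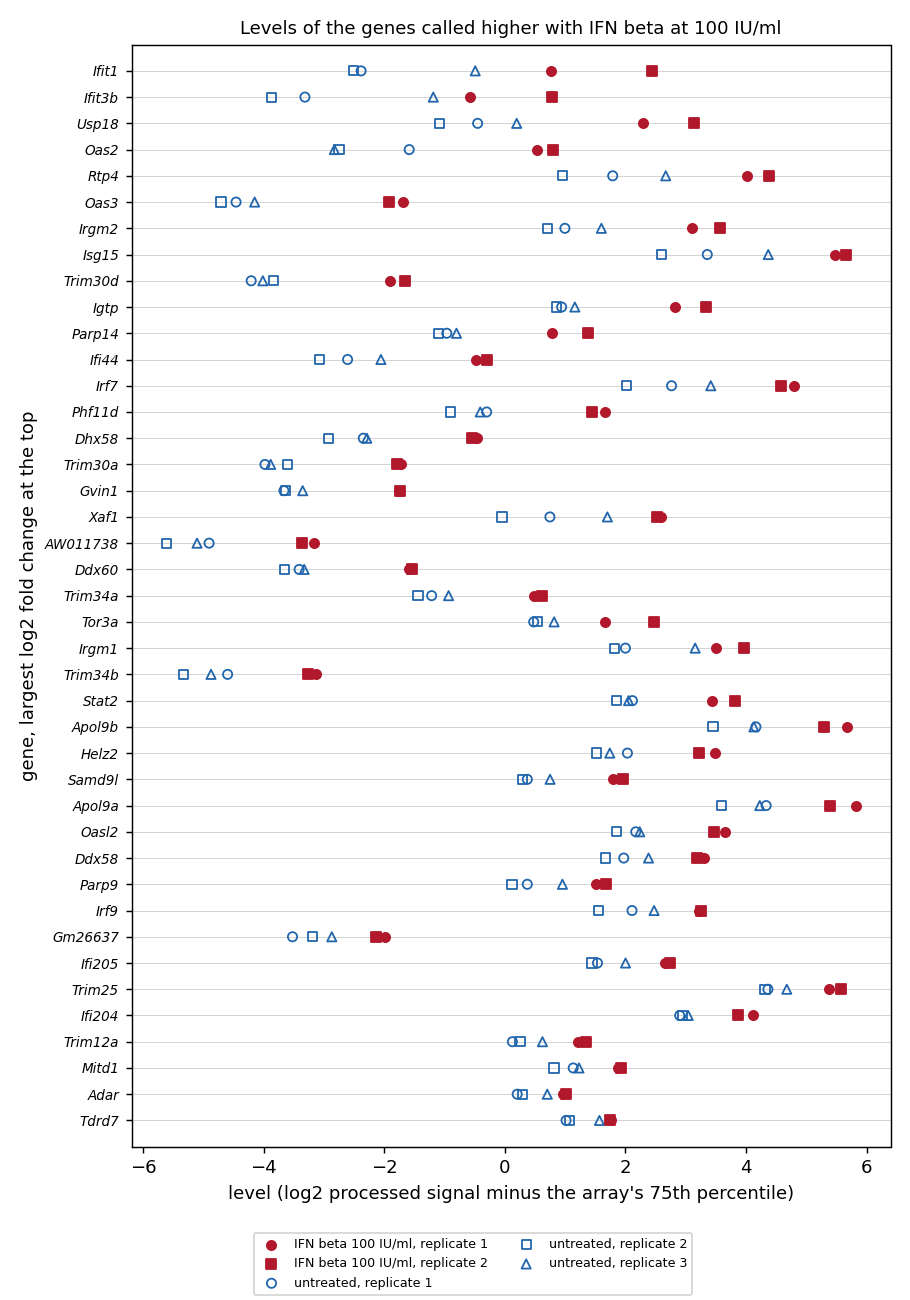
Level of each of the 41 called genes (log2 processed signal minus the array's 75th percentile) in the 2 IFN beta samples (filled) and the 3 untreated samples (open), 1 point per sample, with genes ordered by log2 fold change. In every gene both filled points lie to the right of all open points, and the gap is narrowest for Adar and Tdrd7 at the bottom.

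The signalling chain was raised in its transcription factors and not detectably in its receptor. Of 8 tested genes of the receptor, kinases and STATs, 2 rose, with a list median of 0.14. Stat2 had levels of 3.44 and 3.81 with IFN beta, against 2.12, 1.85 and 2.05 in untreated cells. The treated samples stood clear of untreated cells, which lay close together, and the gain was 1.75 ± 0.26 log2 (SE, limma adjusted p = 0.0131). Irf9, the DNA-binding partner of the complex, had 3.22 and 3.25 with IFN beta, against 2.11, 1.55 and 2.47 in untreated cells, a rise of 1.30 ± 0.17 (adjusted p = 0.00445). Its treated samples were nearly equal and its untreated ones spread over almost 1 log2. For the receptor chains the difference was 0.01 for Ifnar1 (95% interval -0.24 to 0.26) and -0.01 for Ifnar2 (-0.21 to 0.20).

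Among 10 interferon regulatory factors and related transcription factors 1 rose. Irf7, which drives the later wave of interferon genes, had 4.80 and 4.59 with IFN beta, against 2.76, 2.01 and 3.41 in untreated cells. The IFN beta samples were above the highest untreated sample, of replicate 3, and the rise was 2.20 ± 0.26 log2 (limma adjusted p = 0.00335). Irf1, a transcription factor that interferons induce, differed by 0.45 ± 0.32 (adjusted p = 0.9999). Nlrc5, the activator of MHC class I genes, differed by 1.15 ± 0.48 (adjusted p = 0.9999).

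Of 14 negative regulators tested 1 rose, Usp18, which strips Isg15 from proteins and also blocks the receptor from within the cell. Usp18 had 2.29 and 3.14 with IFN beta, against -0.45, -1.08 and 0.20 in untreated cells. No untreated sample came within 2 log2 of a treated one, and Usp18 rose 10.6-fold, by 3.41 ± 0.33 log2 (limma adjusted p = 0.00266). Socs1, an inhibitor of the receptor's kinases, differed by 0.87 ± 0.57 (adjusted p = 0.9999), and the median of the 14 was 0.06.

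Usp18 is also 1 of 3 genes of the Isg15 system that rose, out of 6 tested (median 1.24). Isg15, a ubiquitin-like protein that is joined to other proteins, had 5.47 and 5.65 with IFN beta, against 3.36, 2.59 and 4.37 in untreated cells. Untreated cells differed by more than 1 log2 among themselves and stayed below both treated samples, and the rise was 2.40 ± 0.27 log2 (limma adjusted p = 0.00292). Trim25, a ubiquitin ligase that activates the RNA sensor encoded by Ddx58, rose by 1.13 ± 0.15 (adjusted p = 0.00594).

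The Ifit proteins bind foreign RNA and block its translation, and this family had the highest median of the lists, 2.60, with 2 of 6 tested members called. Ifit1 had 0.76 and 2.44 with IFN beta, against -2.38, -2.50 and -0.49 in untreated cells. Its replicate 2 was above its replicate 1 by more than 1 log2, and untreated replicate 3 stood above the other untreated samples and below both treated ones. The rise of Ifit1 was 14.2-fold, or 3.83 ± 0.48 log2 (limma adjusted p = 0.00396). Ifit3b had -0.58 and 0.79 with IFN beta, against -3.32, -3.87 and -1.19 in untreated cells, and rose by 3.54 ± 0.58 (adjusted p = 0.0224). Its near-identical partner Ifit3 differed by 3.07 ± 0.59 and just missed the threshold (adjusted p = 0.0640), and probes cannot be assumed to tell the pair apart.

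Of 11 genes of the Oas family and RNase L 3 rose (median 1.26). Oas enzymes make linked oligoadenylates on sensing double-stranded RNA, which activate RNase L. Oas2 had 0.53 and 0.80 with IFN beta, against -1.59, -2.75 and -2.83 in untreated cells, and rose by 2.90 ± 0.37 log2 (limma adjusted p = 0.00408). Here untreated replicate 1, not 3, was the highest untreated sample. Oas2 has a second probe, whose difference was -0.14, so the rise was seen on 1 of 2 probes. Oas3 had -1.70 and -1.93 with IFN beta, against -4.46, -4.71 and -4.15 in untreated cells, and rose by 2.60 ± 0.32 (adjusted p = 0.00396). Its differences on the 2 dates were almost equal, at 2.76 and 2.78. Oasl2, an Oas-like protein, rose by 1.59 ± 0.20.

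In RNA sensing 4 of 10 tested genes rose (median 1.24), Trim25 among them. Dhx58, which encodes the helicase LGP2, had -0.46 and -0.55 with IFN beta, against -2.35, -2.92 and -2.29 in untreated cells, and rose by 2.10 ± 0.26 log2 (limma adjusted p = 0.00396). Both groups were tight and far apart. Ddx60, a helicase that assists the sensors, rose by 1.91 ± 0.33 and Ddx58, the sensor RIG-I, by 1.43 ± 0.17, with all 4 of its probes between 1.28 and 1.51. Tlr3, an endosomal receptor for double-stranded RNA, was well above background on 4 of 6 untreated arrays and differed by 1.35 ± 0.49 (adjusted p = 0.9999). In DNA sensing 2 of 9 rose (median 0.67), the DNA-binding proteins Ifi205 (1.27 ± 0.22, adjusted p = 0.0340) and Ifi204 (1.09 ± 0.19, adjusted p = 0.0366).

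Interferon-inducible GTPases, which act on the vacuoles of intracellular parasites, had 4 of 16 tested members called and a median of 1.62. Irgm2 had 3.10 and 3.57 with IFN beta, against 1.00, 0.70 and 1.60 in untreated cells, a rise of 2.50 ± 0.34 log2 (limma adjusted p = 0.00594). Igtp had 2.81 and 3.33 with IFN beta, against 0.94, 0.85 and 1.16 in untreated cells, and rose by 2.31 ± 0.35 (adjusted p = 0.0135). The untreated samples of Igtp lay within 0.5 log2 of each other. Irgm1 rose by 1.76 ± 0.27 and the very large GTPase Gvin1 by 2.02 ± 0.36. The guanylate-binding proteins were not called: Gbp7 was nearest, at 1.86 ± 0.35 (adjusted p = 0.0565), and Gbp2 differed by 0.99 ± 0.50 (adjusted p = 0.9999).

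The list of other antiviral effectors gave the most calls, 9 of 27 tested (median 1.00). Rtp4, an interferon-induced receptor transporter protein, had 4.01 and 4.38 with IFN beta, against 1.79, 0.95 and 2.67 in untreated cells, and rose by 2.62 ± 0.33 log2 (limma adjusted p = 0.00396). Ifi44 had -0.48 and -0.29 with IFN beta, against -2.61, -3.07 and -2.06 in untreated cells, and rose by 2.29 ± 0.28 (adjusted p = 0.00373). Neither gene's groups overlapped, and in both untreated replicate 3 was the highest untreated sample. Phf11d, a PHD finger protein, rose by 2.18 ± 0.29, and Xaf1, a binding partner of the apoptosis inhibitor Xiap, by 1.98 ± 0.30. Tor3a, an ATPase of the torsin family, rose by 1.77 ± 0.29. Apol9b and Apol9a, a near-identical pair of apolipoprotein L genes that cannot be told apart with certainty, rose by 1.62 ± 0.16 and 1.60 ± 0.18. Helz2, a helicase, rose by 1.62 ± 0.24 on its brighter probe, while its other probe differed by -0.39. Adar, which edits adenosine to inosine in double-stranded RNA, rose by 0.72 ± 0.13. Rsad2, the radical SAM enzyme viperin, differed by 3.00 ± 0.80 and was not called (adjusted p = 0.443): it had -2.25 and -0.39 with IFN beta, against -4.28, -4.19 and -2.86 in untreated cells. Its treated samples differed from each other by almost as much as its replicate 1 from the untreated sample of the same date.

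Parp and Trim proteins had 7 of 15 tested genes called (median 1.36). Parp14, an ADP-ribosyltransferase, had 0.78 and 1.38 with IFN beta, against -0.96, -1.10 and -0.80 in untreated cells, and rose by 2.30 ± 0.34 log2 (limma adjusted p = 0.0128). Parp9, of the same enzyme family, rose by 1.36 ± 0.22. The Trim genes of a cluster on chromosome 7 that rose were Trim30d (2.31 ± 0.34), Trim30a (2.08 ± 0.38), Trim34a (1.87 ± 0.22), Trim34b (1.76 ± 0.27) and Trim12a (1.07 ± 0.19). Of these, Trim30a lay nearest the threshold, at an adjusted p of 0.04998, and members of the Trim30 and Trim34 pairs are close copies whose probes may share signal. Just outside were Trim12c (1.27 ± 0.24, adjusted p = 0.0581), Phf11c (1.62 ± 0.31, adjusted p = 0.0598) and Parp12 (1.05 ± 0.20, adjusted p = 0.0640).

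The 5 called genes that stood in no list were AW011738 (1.98 ± 0.22), Samd9l (1.60 ± 0.25), Gm26637 (1.29 ± 0.14), Mitd1 (0.95 ± 0.14) and Tdrd7 (0.69 ± 0.12). Samd9l belongs to a family of antiviral restriction factors, Mitd1 acts in the last step of cell division and Tdrd7 is a tudor domain protein of RNA granules. AW011738 was well above background on 5 of 6 untreated arrays, and the other 40 called genes on all 8 arrays. By location, chromosome 7 held the largest number of the 41, 7 (0.633% of its 1105 genes tested), the Trim cluster included. Chromosome 11 held 6 (0.495% of 1212) and chromosome 1 held 4 (0.498% of 803). The highest share was that of chromosome 16, with 3 of 440 (0.682%).

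**Figure D2:**
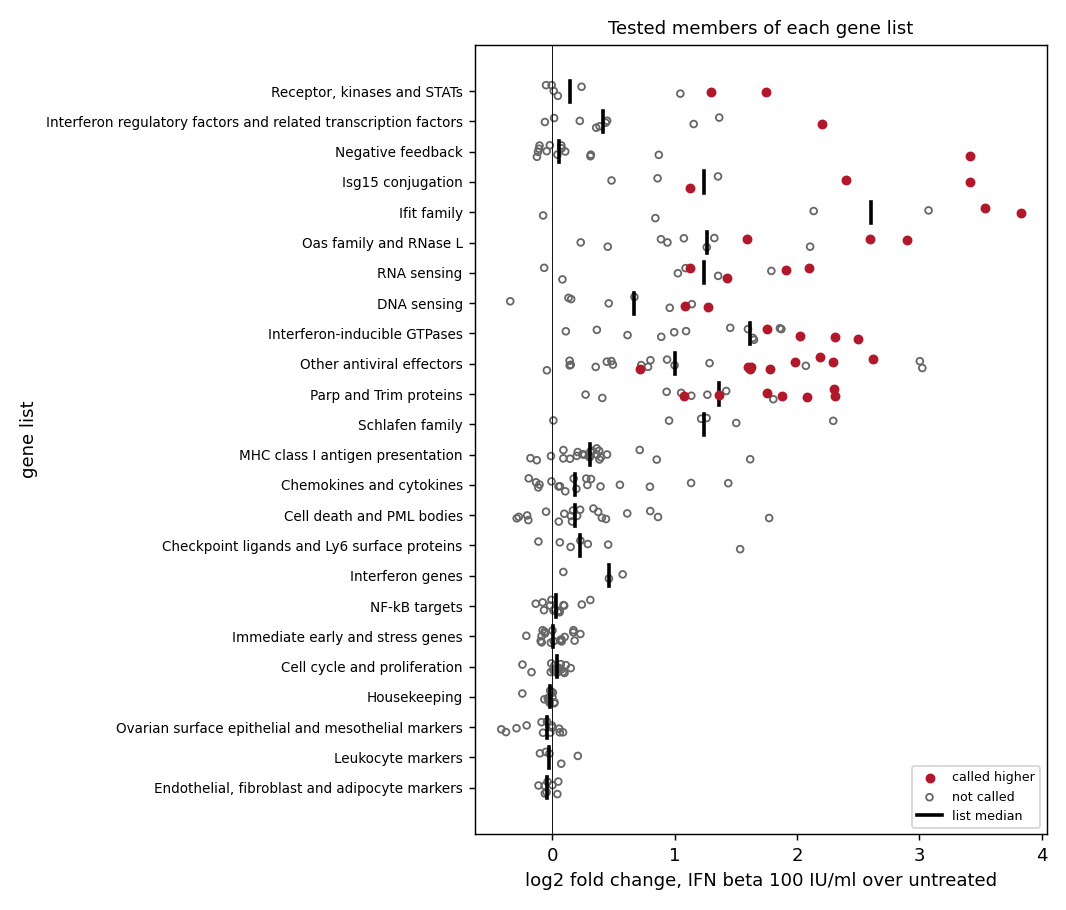
Log2 fold change, IFN beta at 100 IU/ml over untreated, of the tested members of the 24 gene lists, 1 point per gene, with called genes filled, others open, and the median of each list as a bar. The filled points fall in 11 lists of interferon signalling, sensing and antiviral effectors, while the lists of NF-kB targets, cell cycle and housekeeping genes sit at 0.03, 0.03 and -0.02.

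Several interferon-regulated functions had 0 called members at this dose. None of 6 Schlafen genes tested was called, with a median of 1.24. Of 23 genes of MHC class I presentation 0 were called and the median was 0.31. Tap1, which pumps peptides to MHC class I, had 0.95 and 0.84 with IFN beta, against -0.53, -0.44 and -0.64 in untreated cells. The groups lay far apart, with differences of 1.477 log2 on date 1 and 1.285 on date 2. The fit over all groups put the difference higher, at 1.62 ± 0.34, and it did not pass limma's test (adjusted p = 0.118). The class I heavy chain H2-K1 differed by 0.21 (95% interval -0.23 to 0.64) and its light chain B2m by 0.24 (-0.04 to 0.53). Among 18 chemokines and cytokines 0 were called (median 0.18). Cxcl10, a chemokine that draws T cells, had 2.55 and 2.64 with IFN beta, against 1.54, 0.83 and 2.30 in untreated cells. Untreated replicate 3 came within 0.5 log2 of the treated samples, and the difference was 1.44 ± 0.48 (adjusted p = 0.944).

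None of 20 genes of cell death and PML bodies was called (median 0.18). Tnfsf10, the death ligand TRAIL, was well above background on both treated arrays and on 0 of 6 untreated arrays, at least 1.15-fold higher, taking the lowest signal well above background as the floor of an untreated array, with an adjusted p of 0.9999. Cd274, the checkpoint ligand PD-L1, had -2.85 and -1.99 with IFN beta, against -3.28, -3.44 and -3.25 in untreated cells, and 0 of its list of 7 were called. Targets of NF-kB (0 of 14), immediate early and stress genes (0 of 18), cell cycle genes (0 of 17) and housekeeping genes (0 of 12) had medians of 0.03, 0.0047, 0.03 and -0.02. Of the interferon genes themselves 3 of 10 passed the filter on dim probes and 0 were called.

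Across the 12 lists of the interferon pathway, 36 of 136 distinct genes tested were called. Of the 100 that were not, 71 were higher on both dates (18.3% of all genes tested) and 56 had both IFN beta samples above all untreated samples (4.04% of all genes tested). The difference of these 100 had a median of 0.75 log2. In the other 12 lists, 0 of 158 genes were called, 54 were higher on both dates and 22 showed no overlap, with a median of 0.06. These 12 include MHC class I presentation, chemokines and cytokines, cell death and PML bodies, and checkpoint ligands, which also hold interferon-regulated genes. The lists were divided with results known, and every list with a called gene stands among the first 12. The contrast between the 2 sets is therefore a description.

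Markers of cell types were looked up in the same arrays. All 13 tested markers of ovarian surface epithelium and mesothelium were well above background on all 8 arrays. Their highest levels ran from 6.92 (Krt18), with Krt8, Wt1 and Msln also high, down to -1.23 (Cdh1) and -4.43 (Epcam). Their signals summed to 368.4 and 397.5 times the 75th percentile with IFN beta, against 422.4, 412.0 and 544.4 times in untreated cells, and 0 were called. Ptprc, the defining leukocyte marker, and 5 more of 13 leukocyte markers were on 0 of 8 arrays, while Itgam, Cd68, Cd14, Csf1r and Cd3e were on 8. Those 5 summed to 3.63 and 4.98 with IFN beta, against 4.05, 4.51 and 4.19 in untreated cells. Markers of endothelium, fibroblasts and adipocytes, 8 of 13 tested, summed to 252.7 and 250.5 with IFN beta, against 245.3, 257.3 and 315.3 in untreated cells. Of this list Acta2, Dcn and Col1a1 were bright, with highest levels of 7.60, 6.66 and 5.31. Cdh5, Lum, Adipoq and Plin1 were on 0 of 8 arrays. The 75th percentile of intensity was 1117 and 1172 on the IFN beta arrays, against 753.5 to 1078 on the untreated arrays, and the share of probes well above background ran from 48.1% to 53.9% per array. The number of arrays limits the precision: the 95% interval of a gene's log2 fold change reached 0.28 to either side in the median gene, and 0.50 without the date block.

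**Figure D3:**
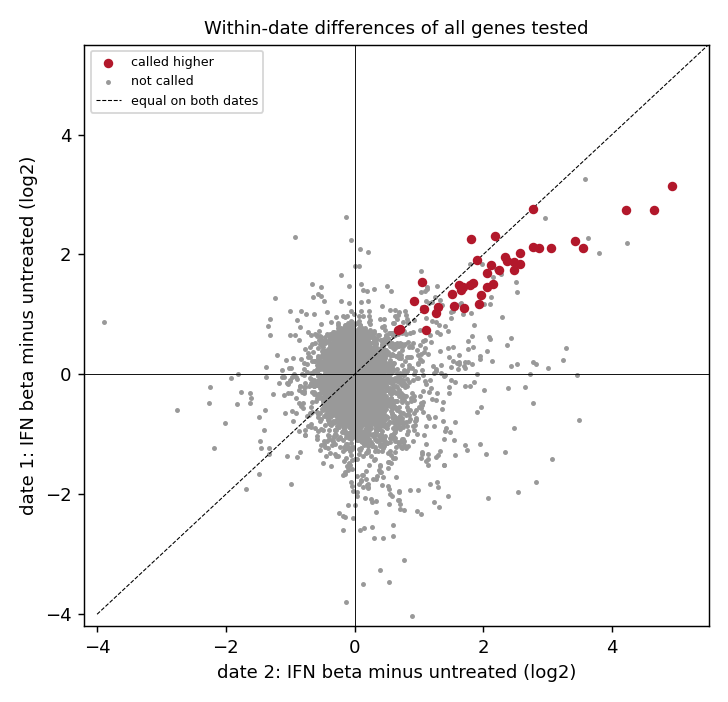
Difference between IFN beta at 100 IU/ml and untreated cells within date 2 (x axis) and date 1 (y axis), in log2, for the 14297 genes tested, with called genes in red. All 41 called genes lie in the upper right quadrant and 34 lie below the dashed line of equal differences.

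The 41 genes were next set against their values at the lower dose. Their median over untreated cells was 0.49 log2 at 10, 1.87 at 100 and 3.36 at 1000 IU/ml, and all 41 point estimates followed the dose, as did those of 1997 of the 14297 genes tested. These comparisons share the untreated samples, and the 41 were chosen for high values in the 100 IU/ml samples, so the order of 10 and 100 IU/ml among them is a description. Set directly against 10 IU/ml, the 100 IU/ml samples were higher in 41 of 41 genes (46.1% of genes tested) with a median difference of 1.41, but 0 of 14297 genes were called in either direction (0%), with 531 at an unadjusted p under 0.05 and a lowest adjusted p of 0.112 by limma. Under median scaling of the arrays 9 genes were called in this comparison. With 2 samples in each group, the median interval reached 0.30 to either side. IFN beta at 10 IU/ml against untreated cells gave 0 calls (0%), with 428 genes at an unadjusted p under 0.05.

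Against the higher dose, 1000 IU/ml of IFN beta was above 100 IU/ml in 121 genes (0.846%) and below it in 3 (0.021%), namely Gm30906, Carf and Ndrg3. Of the 41 genes, 31 were among the 121. The 10 that did not pass this test were Rtp4, Irgm1, Xaf1, Stat2, Apol9a, Apol9b, Irf9, Gm26637, Trim25 and Adar. Irf9 gained 0.28 log2 more at 1000 IU/ml (limma adjusted p = 0.554) and Ifit3b gained 4.21 more (adjusted p = 0.00519). All 41 were called at 1000 IU/ml over untreated cells, where 393 genes were called higher (2.75%). Panel genes that did not pass at 100 IU/ml included Cxcl10, Tap1 and Rsad2, whose log2 fold changes over untreated cells were 1.44, 1.62 and 3.00 at 100 IU/ml and 4.65, 3.62 and 7.37 at 1000 IU/ml.

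**Figure D4:**
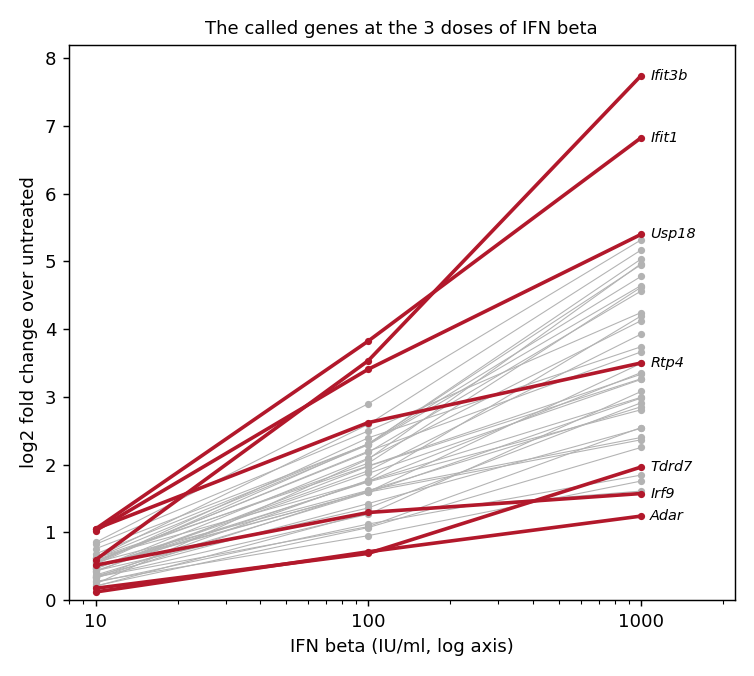
Log2 fold change over untreated cells of the 41 called genes at IFN beta doses of 10, 100 and 1000 IU/ml (log axis), 1 line per gene, with 7 genes labelled. Every line climbs with dose; Irf9 flattens between 100 and 1000 IU/ml, and Ifit3b and Ifit1 are steepest there among the labelled genes.

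At the matched dose of 100 IU/ml, IFN beta was set against IFN epsilon, whose group has 3 samples. IFN beta was higher in 0 genes (0%) and lower in 52 (0.364%), with 1091 genes at an unadjusted p under 0.05 by limma. Of the 41 genes, 19 were among those 52. Tdrd7 was lower with IFN beta by 1.08 log2 (difference -1.08 ± 0.12, adjusted p = 0.0130) and Oas3 by 2.36 (difference -2.36 ± 0.32, adjusted p = 0.0170). Irf9 differed by -0.16 (adjusted p = 0.821) and Gm26637 by -0.07 (adjusted p = 0.917). The IFN epsilon group includes date 3, from which no sample of IFN beta at 100 IU/ml entered the fit. On that date the excluded IFN beta array was above IFN epsilon in Tdrd7 (3.88 against 3.26) and Oas3 (0.71 against 0.24). It was below IFN epsilon in Irf9 (3.67 against 3.77). How far the 52 calls depend on leaving that array out was not tested. All 41 were called with IFN epsilon at 100 IU/ml over the same untreated samples, in which 211 genes were called higher (1.48%), and their median there was 3.15. How the activity units of the 2 recombinant proteins compare is not given in the sources used here. Without the date block the count of 52 was 13, and that of 124 for 1000 against 100 IU/ml was 67.

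Promoter windows of 300 bases, from 250 before to 50 after the start, were at hand for 32 of the 41 genes. The ISRE core stood in a window of 19 of these 32 (59.4%), against 3.66% of the 11325 tested genes with a window and 3.99% of all 27025 genes. The GAS core stood in 4 of 32 (12.5%), against 8.38% of the tested genes and 9.55% of all. Where both were found in the sequences printed above, in Igtp and Irgm2, the 2 cores were 11 bases apart from start to start in each. A match to these letters describes the sequence and is not a measured binding site.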

How the data were processed

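RNA was measured on 24 single-colour Agilent arrays, and the 5 samples compared here used 8. Each scanner file lists 62976 spots (59305 for probes) with a processed signal, a linear intensity from which Agilent Feature Extraction (11.0.1.1) had subtracted the background, per the file headers. A deposited table holds the authors' log2 values, all arrays having the same range. For it the submitters' processing notes list limma 3.42.0 under R 3.6.1, and what was done with them is not stated in the labels or headers.

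Values are log2 of that signal less the array's own 75th percentile. Control spots and 79 to 241 outlier spots per array of the 8 were dropped, no spot was saturated (0), and repeat spots of a probe were averaged. RefSeq accessions named 32994 of 56605 probes, for 22911 genes, against GRCm38.p6; 23611 stayed unnamed. A probe was kept if well above background in 2 samples of a group, and the brightest kept probe stood for its gene. limma 3.58.1 (R 4.3.3) fitted 19 samples in 7 groups with date as a block and 10 residual degrees of freedom. Same-numbered samples deviated together (median correlation 0.48 over 52 pairs, against -0.21 over 102 pairs of different number), the pairing coming from the series text on dates. For IFN beta at 100 IU/ml and untreated cells the correlation was lower, at 0.23 for replicate 1 and 0.32 for replicate 2. Deviations were taken from group means, so values for same and different numbers are not independent of each other. Tables were read with data.table (1.17.8), the array-level alternative used statmod 1.5.0, and plots used Python 3.11.15 with matplotlib 3.10.9. The fit was tested on simulated data.

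The genes named are all called genes, a panel of 24 and the 5 on each side of the threshold. Members, lists and alternatives were chosen with earlier results of these data known. Alternatives were other scalings, filters and backgrounds, no date block, slide as a block, fewer or all arrays and each sample left out. The normexp alternative used median in place of mean spot signal, which the files lack.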

Additional observations from a re-analysis of the deposited data

Results flagged for a closer look

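The array labelled IFN beta 100 IU/ml replicate 3, which its label excludes and which the report's groups leave out, showed a signal above its control. The 41 called genes differed from untreated replicate 3 by a median of 3.43 log2 on it (1.19 to 7.57), against 3.48 on the array of IFN beta at 1000 IU/ml from the same date. Its level was above both other samples of 100 IU/ml in 41 of 41 genes. As a difference from the untreated sample of the same date it was above both in 38 of 41, the exceptions being Gm26637, Irf9 and Rtp4.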

How the results depend on the processing

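The count of 41 genes higher lay between 30 and 42 under median scaling (40), quantile normalization (38), normexp (42), the deposited values (40), no filter (30) and a stricter filter (42), and 29, 38, 34, 35, 30 and 41 of the 41 were kept. With no replicate block it was 16 higher, with slide as a block 69 higher and 1 lower, and with only the groups compared, with all 24 arrays, or with all 24 arrays and no replicate block (an alternative added after seeing the data) it was 0, with 524, 1106 and 220 genes at an unadjusted p under 0.05 by limma. Leaving out 1 sample gave 0 to 72 genes higher and 0 to 156 lower: 0 (357 at an unadjusted p under 0.05) without IFN beta 100 replicate 1, 72 and 156 without replicate 2, 34, 19 and 22 without untreated replicates 1, 2 and 3. A lone IFN beta sample is then assumed to vary like the other groups. Against IFN epsilon the 52 calls were 13 with no replicate block and 76 under median scaling; against 1000 IU/ml the 124 were 67 and 124; against 10 IU/ml the 0 were 0 and 9. No fold change of a called gene turned sign. Apol9a, Apol9b, Dhx58, Ifi44, Oas2, Oas3, Oasl2, Trim34a and Usp18 were called in 12 of these 15 settings, the added one not counted. The cause of these changes was not tested. Dim probes give only a bound where no array was above background.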

Other observations

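Over all genes tested, the excluded array of IFN beta at 100 IU/ml differed from the array of 1000 IU/ml of the same date by a median absolute 0.0875 log2, the smallest value among the 28 pairs of arrays of that date. The pair lay on the same slide. The duplicate arrays of untreated replicates 1, 2 and 3 differed by 0.183, 0.0799 and 0.139, and those of replicate 2 also shared a slide. All 41 called genes were within 0.5 log2 of the 1000 IU/ml array, with a median gap of -0.09.

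Among the 31021 probes kept, a fit at the level of probes called 51 higher and 0 lower, and 7 of the 51 have no gene name here.

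The 4 genes that follow, chosen after their values were seen, were above background on both arrays of IFN beta at 100 IU/ml, on 0 of 6 untreated arrays and on at most 1 of the 16 others. They passed the filter on dim probes through this group, so a difference from untreated cells was built into the choice. Pcdhb4, a protocadherin, was at least 2.03-fold higher, Olfr608, an olfactory receptor, at least 1.29-fold, Tas2r140, a bitter taste receptor, at least 1.24-fold and Gm13446 at least 1.06-fold. The floor is the lowest signal well above background on an untreated array, and limma called none of them (adjusted p from 0.128 to 0.9999).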
